A study of Homo sapiens with 3 samples.

Results

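The transcription factors that drive epithelial-mesenchymal transition (EMT) were described in SH-SY5Y, a human neuroblastoma cell line. They are the genes TWIST1, TWIST2, SNAI1, SNAI2, SNAI3, ZEB1, ZEB2, PRRX1, PRRX2 and MEOX2. The 10 genes were taken by symbol, through their Ensembl identifiers in GENCODE 29, out of 59152 named genes of the deposited table. All 10 had a row. The data are 3 stranded mRNA libraries from separate flasks of SH-SY5Y cells with no treatment named, grown in medium with serum and harvested at about 60% confluency. They form 1 group (replicates 1, 2 and 3), with no second cell line, genotype, treatment or time. The only comparisons are therefore of gene against a fixed level and of gene against gene. The limma p-values set a gene's level against the spread between flasks of 1 line, partly borrowed from all genes tested. The exact p-values of gene pairs are 0.25 whenever all 3 libraries share a sign, whatever the spread. The line stands for no other neuroblastoma.

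EMT is the change by which epithelial cells lose junctions and polarity and gain motility. It is used in the embryo when neural crest cells leave the neural tube. TWIST factors are basic helix-loop-helix (bHLH) proteins that bind E-box sequences as dimers. SNAIL (SNAI) and ZEB factors are zinc finger proteins that bind E-boxes in promoters of epithelial genes, such as the cadherin gene CDH1, and recruit corepressors. PRRX and MEOX factors are homeodomain proteins of mesenchyme. Neuroblastoma comes from the sympathoadrenal branch of the neural crest. In the neuroblastoma field, PRRX1 and MEOX2 are known as factors of the mesenchymal cell state, and PHOX2A, HAND2 and GATA3 as factors of the noradrenergic state.

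Values are FPKM, which divides a gene's fragments by its transcript length and by the size of the library, as the authors deposited them. Because FPKM is per length, levels of different genes are set side by side here. Other differences between genes, such as reads shared with an overlapping gene, are not removed by it. Depth, estimated from the steps of low values, was 21600000 to 43800000 reads. At that depth 3 reads on an effective kilobase of transcript are worth 0.139 FPKM in the shallowest library and 0.0685 in the deepest. This floor covers counting error only. A value of exactly 0 may mean no reads or an estimate that failed, and such a gene is described only as listed at 0. Each gene was tested with limma against 1 FPKM on the log2(FPKM + 0.1) scale, with Benjamini-Hochberg adjustment over 31736 genes, and is called above or below at an adjusted p under 0.05. Of those genes 45.5% were called above and 43.7% below. Of 16750 protein-coding genes tested, 70.6% were called above and 24.6% below. The labelled cell type was checked against marker genes. All 8 noradrenergic markers were called above, with a summed level of 4385 to 4551 FPKM per library. Most of that sum came from STMN2 alone, at 2429, 2463 and 2325 FPKM in replicates 1, 2 and 3. The lowest of the 8, ISL1, averaged 103 FPKM. The 5 endothelial markers summed to 0.044 to 0.136 FPKM and the 5 immune markers to 0.159 to 0.438 FPKM, with none called above in either set. Of 8 fibroblast markers 5 were called above, with a sum of 109 to 120 FPKM, and of 7 epithelial markers 1 was called above, with a sum of 3.71 to 5.74 FPKM. None of 6 Schwann cell or glial markers was called above.

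TWIST1 dominated the group. Of the 10 factors, 6 were called above 1 FPKM (TWIST1, ZEB1, ZEB2, PRRX2, SNAI1 and SNAI2), SNAI3 and TWIST2 were called below, and PRRX1 and MEOX2 were listed at 0 in every library. That is 60% of the 10, or 75% of the 8 that could be tested, beside 70.6% of protein-coding genes, so the count of expressed members was near the background. The group's median over all 10, with the pair at 0, was 4.45 FPKM. The median of protein-coding genes tested, 9.13 FPKM, leaves out genes at 0 in every library, so these medians cover unlike sets. Over all 19680 protein-coding genes, 50.5% were higher than SNAI1 at 5.12 FPKM. The 10 genes together held 295.6, 322.2 and 289.2 FPKM in replicates 1, 2 and 3, and TWIST1 made up 73.1%, 74.2% and 70.6% of that. By mean level the order was TWIST1, ZEB1, ZEB2, PRRX2, SNAI1, SNAI2, SNAI3 and TWIST2, followed by the pair at 0. From TWIST1 down to TWIST2, neighbours in this order had ranges over the 3 libraries that did not overlap. The steps from TWIST2 to PRRX1 and from PRRX1 to MEOX2 did not separate, since all 3 genes had a value of 0 in at least 1 library. The narrowest step among the expressed factors lay between SNAI1, lowest at 4.61 FPKM, and SNAI2, highest at 3.99.

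**Figure D1:**
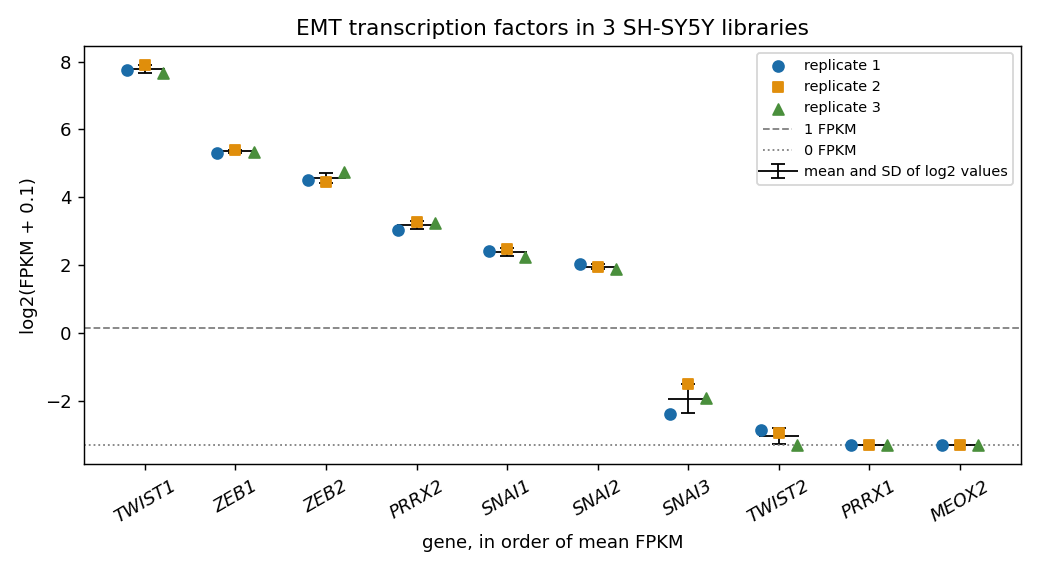
Level of each EMT transcription factor as log2(FPKM + 0.1) (vertical axis) in replicates 1, 2 and 3 (circles, squares and triangles), with the mean and SD of the log2 values in black, ordered by mean FPKM. TWIST1 stands at about 220 FPKM, ZEB1 to SNAI2 lie between 40.7 and 3.78, and the last 4 genes lie below the dashed line at 1 FPKM.

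TWIST1, the bHLH factor of cranial mesenchyme and neural crest, was at 216, 239 and 204 FPKM in replicates 1, 2 and 3. The 3 libraries lay close together, and the mean was 219.8 ± 17.8 FPKM (SD, n = 3). It ranked 424th of 19680 protein-coding genes, so that 2.15% of them were higher. Its log2 distance above 1 FPKM was 7.64 (SE 0.0831, limma adjusted p = 2.99e-05). About 6846, 9992 and 13100 reads stood behind the values, estimated from its main transcript of 1666 bases. Its SD of log2 values was 0.116, and 47.1% of 16110 genes averaging 1 FPKM or more varied less, so its spread between flasks was near the middle of these genes. The 5 protein-coding genes nearest to TWIST1 in level over the 3 libraries, by Euclidean distance of log2 values, were PLD3 (distance 0.0743), EIF3F (0.11), PRMT5 (0.133), ERGIC3 (0.135) and RTN1 (0.143).

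TWIST1 lies on chromosome 7, from 19020991 to 19117672 on the minus strand of GRCh38, with 3 annotated transcripts. Within 250 kb on either side, TWIST1 and HDAC9 were the genes at a high level. HDAC9, a class IIa histone deacetylase gene, ends its span 18575 bases from that of TWIST1 and is read from the other strand. It was at 90.4, 106.5 and 92.6 FPKM (mean 96.5 ± 8.72), in every library below TWIST1. The antisense gene AC003986.2 overlaps TWIST1 and shares 141 exonic bases with it, and was at 3.92 ± 0.482 FPKM. The antisense gene AC003986.3, 2261 bases upstream of the TWIST1 start, was at 2.103 ± 0.595. FERD3L, the neighbouring bHLH gene of the TWIST family, was at 0, 0 and 0.052 FPKM. Whether the authors counted by strand is not known here, so reads of overlapping genes on opposite strands cannot be told apart. Of 1982 stretches of 50 bases (the read length) in TWIST1 exons, 49 (2.47%) also occur in AC003986.2, and none occurs in another EMT factor.

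**Figure D2:**
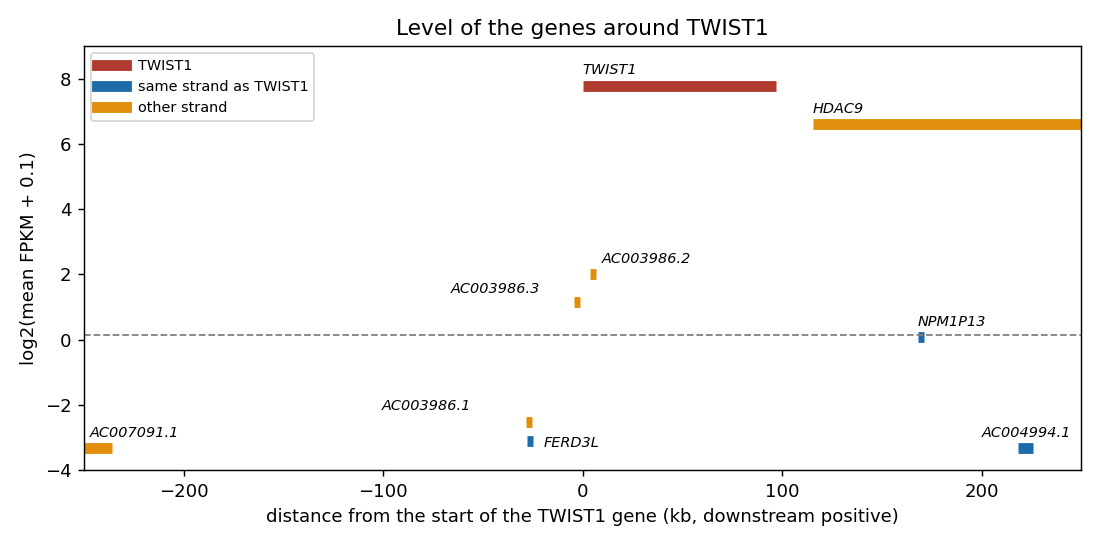
Genes within 250 kb of the TWIST1 start, drawn as bars over their annotated span (horizontal axis, kb, downstream of TWIST1 positive; the shortest are widened to 3 kb) at their mean level as log2(FPKM + 0.1) (vertical axis). TWIST1 (219.8 FPKM) and HDAC9 (96.5 FPKM) stand far above the other 7 genes, of which the highest is AC003986.2 at 3.92 FPKM.

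TWIST2, the closest paralog of TWIST1 (chromosome 2, 238848032 to 238910543), was at 0.038, 0.029 and 0 FPKM. These values correspond to 1, 1 and 0 reads. Every library was under its 3-read floor for this gene (0.115, 0.0874 and 0.0569 FPKM). TWIST2 was called below 1 FPKM (log2 distance -3.18, SE 0.128, limma adjusted p = 1.84e-04). From the 2 reads in all, the ratio of TWIST1 to TWIST2 was 12424, with a 95% exact Poisson interval of 3439 to 102589 that covers the counting error of TWIST2 only. TWIST1 and TWIST2 share no 50-base stretch, so exact reads of TWIST1 could not be counted to TWIST2.

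The relatives of TWIST1 in its bHLH class split into expressed and unexpressed genes. Of 10 listed, 4 were called above, 4 below, and MSC and TCF21 were listed at 0. Those called above are 40% of the list, or 50% of the 8 tested, beside 70.6% of protein-coding genes tested. The median was 0.051 FPKM. HAND2, a factor of sympathetic neurons, was at 446.5, 464.4 and 451.6 FPKM and exceeded TWIST1 in all 3 libraries (log2 difference of TWIST1 minus HAND2 -1.05 ± 0.09; exact sign-flip p = 0.25, the smallest that 3 libraries allow). HAND2 shares 867 exonic bases with HAND2-AS1 on the other strand, which was at 427 FPKM, so the value of HAND2 is uncertain. HAND1 was at 26.9 ± 2.63 FPKM, TCF15 at 3.48 ± 0.72 and SCX at 2.76 ± 0.862. TCF23 (0.0617), PTF1A (0.0403), TCF24 (0.0183) and FERD3L (0.0173) were called below. Without replicate 3 only 2 of these genes were called below, since TCF24 and FERD3L had a value above 0 in that library alone.

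TWIST and HAND proteins bind DNA together with E-proteins, and ID proteins keep E-proteins off DNA by pairing with them. All 7 genes of these partners were called above 1 FPKM, beside 70.6% of protein-coding genes tested. Their median was 91.05 FPKM. Among the E-protein genes, TCF3 was at 173, 156 and 175 FPKM, TCF4 at 152, 158 and 160, and TCF12 at 101.7, 83.7 and 87.75. TWIST1 exceeded TCF3 in each library, by 0.38 ± 0.20 log2, and TCF12 by 1.27 ± 0.22 log2. TCF4 exceeded TCF12 in each library (log2 difference of TCF12 minus TCF4 -0.79 ± 0.18). ID2 led the inhibitors at 91.3 ± 6.37 FPKM, followed by ID3 (44.8 ± 1.59), ID1 (22.5 ± 3.63) and ID4 (9.90 ± 1.21). ID2 and TCF12 overlapped between libraries, while ID1, ID3 and ID4 lay below every E-protein gene in every library.

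ZEB1 and ZEB2 were the next most abundant factors. ZEB1 (chromosome 10, 31318495 to 31529814, plus strand) was at 39.4, 42.1 and 40.7 FPKM, and the libraries differed little (mean 40.7 ± 1.35). Only 13.0% of those 16110 genes had a smaller SD of log2 values. ZEB2 (chromosome 2, 144364364 to 144524583, minus strand) was at 22.5, 21.9 and 26.8 FPKM (mean 23.7 ± 2.66). ZEB1 exceeded ZEB2 in all 3 libraries (log2 difference of ZEB2 minus ZEB1 -0.78 ± 0.17, exact p = 0.25). Their log2 distances above 1 FPKM were 5.21 for ZEB1 (SE 0.068, limma adjusted p = 2.99e-05) and 4.43 for ZEB2 (SE 0.0959, limma adjusted p = 4.62e-05). The antisense genes that overlap them were lower, with ZEB1-AS1 at 11.8 ± 1.53 FPKM and ZEB2-AS1 at 1.58 ± 0.412. ZEB1-AS1 shares 366 exonic bases with ZEB1, and ZEB2-AS1 shares 1299 with ZEB2. Of the 50-base stretches of ZEB1 and ZEB2, 2.84% and 4.41% also occur in other genes when both strands are searched. For ZEB2 these genes include the pseudogene ZEB2P1. Reads shared with an antisense gene fit either gene if the counting ignored strand, which is not known here.

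ZEB1 and ZEB2 mRNAs are well known targets of the miR-200 family, small RNAs of epithelial cells that pair through bases 2 to 8 (the seed) with matches in the 3′ UTR. The 5 mature family members are shown, from RefSeq on GRCh38.p14, because their seeds define the sites counted here. The seed is in capitals:
hsa-miR-141-3p: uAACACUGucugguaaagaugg
hsa-miR-200a-3p: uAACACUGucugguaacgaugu
hsa-miR-200b-3p: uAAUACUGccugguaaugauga
hsa-miR-200c-3p: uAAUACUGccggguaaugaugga
hsa-miR-429: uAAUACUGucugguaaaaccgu
The family falls into 2 seed groups. miR-141 and miR-200a pair with CAGTGTT, and miR-200b, miR-200c and miR-429 pair with CAGTATT.

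Both matches were searched in the 3′ UTR of the longest coding transcript of each gene in GENCODE 29. ZEB1 held 9 matches in 2549 bases (3.53 per kb) and ZEB2 held 9 in 5370 bases (1.68 per kb). Over 19014 genes the density was 0.256 per kb, 28.2% of genes held at least 1 match, and 6 genes (0.0316%) held at least 9. Among the other 8 factors, MEOX2 and SNAI2 held 1 match each, and TWIST1, TWIST2, SNAI1, SNAI3, PRRX1 and PRRX2 held none. The first 2 sites of ZEB1 and of ZEB2 after the stop codon are printed with flanking bases, the match in capitals, to show both seed groups:
ZEB1, 369 bases after the stop codon: gcattgttttatcttatCAGTATTatcact
ZEB1, 463 bases after the stop codon: atatgctaaatccgcttCAGTATTttatta
ZEB2, 208 bases after the stop codon: tatgcaaaaattttgtaCAGTGTTaaggcc
ZEB2, 392 bases after the stop codon: cccgcactaccatacatCAGTATTtttatt
MIR200CHG, the host gene of miR-200c and miR-141, and MIR205HG, the host gene of miR-205, were listed at 0 in every library. Mature miRNAs were not measured in these mRNA libraries. A seed match is a description of the letters and not a measured site of binding.

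**Figure D3:**
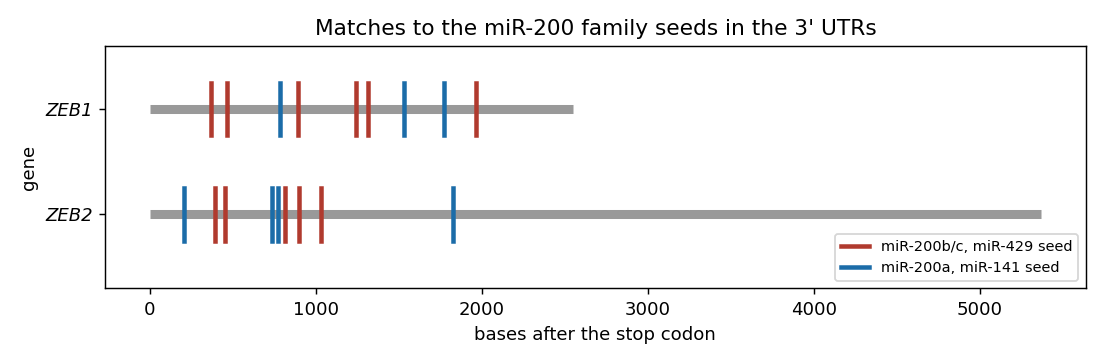
Positions of miR-200 family seed matches along the 3′ UTRs of ZEB1 and ZEB2, in bases after the stop codon (horizontal axis). Grey bars span the UTR (2549 and 5370 bases), red ticks mark the miR-200b/c and miR-429 seed and blue ticks the miR-200a and miR-141 seed. Each gene has 9 ticks.

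Of the SNAIL genes, SNAI1 and SNAI2 lay near the middle of 19680 protein-coding genes, of which 50.5% and 53.7% were higher. SNAI3 was low. SNAI1 (chromosome 20, 49982999 to 49988886, plus strand), which encodes the founding SNAIL protein, was at 5.26, 5.48 and 4.61 FPKM (mean 5.12 ± 0.451). SNAI2 (chromosome 8, 48917604 to 48921740, minus strand), which encodes SLUG, a factor of migrating neural crest, was at 3.99, 3.75 and 3.61 FPKM (mean 3.78 ± 0.195). SNAI1 lay 2.24 log2 above 1 FPKM (limma adjusted p = 1.64e-04) and SNAI2 1.82 log2 above it (limma adjusted p = 1.78e-04). SNAI1 exceeded SNAI2 in all 3 libraries (log2 difference of SNAI2 minus SNAI1 -0.42 ± 0.10, exact p = 0.25). Against a level of 5 FPKM SNAI1 lost its call (log2 distance 0.03, limma adjusted p = 0.76) and SNAI2 was called below (-0.39, limma adjusted p = 0.011). TWIST1 stood 42.9 times above SNAI1 and 58.1 times above SNAI2 by mean FPKM.

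SNAI3 (chromosome 16, 88677682 to 88686493, minus strand), the least studied of the SNAIL genes, was at 0.091, 0.251 and 0.165 FPKM, or 3, 11 and 11 estimated reads. Replicate 1 was lowest, and all 3 values lay below 1 FPKM (log2 distance -2.08, SE 0.209, limma adjusted p = 0.00222). SNAI1 exceeded SNAI3 in every library by 4.32 ± 0.43 log2. SNAI3-AS1, which overlaps SNAI3 on the other strand and shares 163 exonic bases with it, was higher than SNAI3 at 1.568, 1.501 and 1.655 FPKM. Of 1683 stretches of 50 bases in SNAI3, 114 (6.77%) also occur in SNAI3-AS1 when both strands are searched. Reads from those stretches fit either gene if the counting ignored strand, which is not known here. The protein-coding neighbours on each side, MVD (15.4 ± 1.42 FPKM) and RNF166 (16.8 ± 1.02), were far higher than SNAI3.

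The homeodomain factors differed within the PRRX pair. PRRX2 (chromosome 9, 129665641 to 129722674, plus strand) was at 8.13, 9.57 and 9.36 FPKM (mean 9.02 ± 0.779; log2 distance 3.05, limma adjusted p = 7.78e-05). PRRX1 (chromosome 1, 170662728 to 170739419, plus strand) was listed at 0 in all 3 libraries, where 3 reads would have been worth 0.034, 0.0258 and 0.0168 FPKM. MEOX2 (chromosome 7, 15611212 to 15686812, minus strand) was also listed at 0 in all 3, with floors of 0.0604, 0.0458 and 0.0298 FPKM. No fold of PRRX2 over PRRX1 is given, since PRRX1 has no value above 0. No 50-base stretch is shared between PRRX1 and PRRX2. The antisense gene PRRX2-AS1, inside the span of PRRX2, was listed at 0, 0 and 0.203 FPKM. The genes nearest to MEOX2 were also low, with AGMO at 0.041, 0 and 0.066 FPKM and LINC02587 listed at 0.

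**Figure D4:**
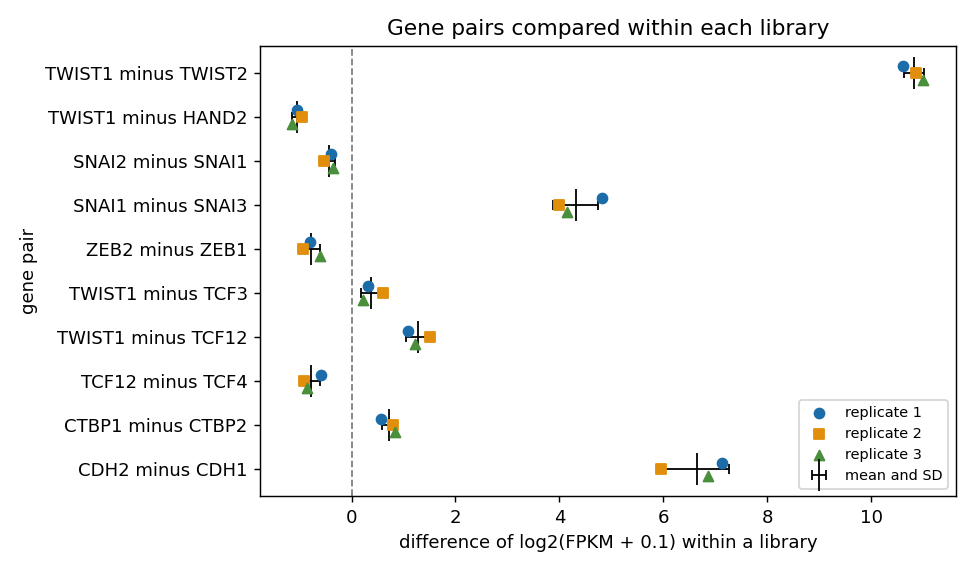
Difference of log2(FPKM + 0.1) between the genes of 10 pairs within each library (horizontal axis; symbols by replicate, black mean and SD). Each pair keeps its sign in 3 of 3 libraries, from -1.05 for TWIST1 minus HAND2 to 10.8 for TWIST1 minus TWIST2, where TWIST2 has 2 reads in all and the size depends on the pseudocount.

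Most genes of the proteins that these factors recruit to silence promoters were called above 1 FPKM. Of 20 genes of corepressors and chromatin partners, 19 were called above and WTIP (0.397, 0.602 and 0.739 FPKM), an adaptor of the AJUBA family, was called below. Without replicate 2, or after leaving mitochondrially encoded genes out of the scaling, none was called below. The 19 are 95% of the list, beside 70.6% of protein-coding genes tested. The median was 34.7 FPKM. The highest were YBX1 (728 ± 35.2 FPKM), a nucleic acid binding protein, HDAC2 (263 ± 8.94), a histone deacetylase, and SMARCA4 (201 ± 12.1), a chromatin remodelling ATPase. The lowest beside WTIP were AJUBA (1.93 ± 0.393) and LIMD1 (3.51 ± 0.771), LIM adaptors that link SNAIL to its effectors. LIMD1 shares 1029 exonic bases with LIMD1-AS1, which was higher at 4.44 FPKM. CTBP1 and CTBP2 encode the corepressors that ZEB proteins bind. CTBP1 was at 83.5, 87.4 and 95.3 FPKM and exceeded CTBP2, at 56.6, 50.5 and 53.5 FPKM, in all libraries (log2 difference 0.73 ± 0.15, exact p = 0.25).

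SNAIL, TWIST and ZEB proteins are short-lived, and their amount depends on phosphorylation and ubiquitin ligases as well as on mRNA. All 17 genes listed for this turnover were called above 1 FPKM, beside 70.6% of protein-coding genes tested. Their median was 34.3 FPKM. SKP1, a subunit of SCF ligases, was highest at 295 ± 11.4 FPKM, followed by CSNK1A1 (96.8 ± 7.39), a casein kinase, and CDK5 (61.7 ± 7.905), a neuronal kinase. CDK5 shares 331 exonic bases with SLC4A2, which was higher at 109 FPKM. The lowest were the deubiquitinase gene USP27X (3.44 ± 0.0768), the F-box gene FBXL14 (4.195 ± 0.369) and BTRC (12.4 ± 0.837), the F-box protein that recognises phosphorylated SNAIL. Protein levels were not measured.

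Among 25 genes of signals that induce EMT, 17 were called above, 5 below and 1 neither, and BMP4 and IL6 were listed at 0. The 17 are 68% of the list, or 73.9% of the 23 tested, near the 70.6% of protein-coding genes tested. The median over all 25 was 9.82 FPKM. HIF1A, the hypoxia factor that can raise TWIST1 transcription, was highest at 239 ± 12.6 FPKM, followed by the SMAD transducers SMAD4 (65.45 ± 1.24) and SMAD2 (58.9 ± 0.995). TGFBR3, a coreceptor for TGF-beta, was called below at 0.029 ± 0.0125 FPKM. Outside the naming rule, and chosen after the values were seen, the pair of TGF-beta signalling receptors differed. TGFBR1 was at 23.8, 26.1 and 25.4 FPKM, while TGFBR2 was at 0.419, 0.333 and 0.338 and called below (limma adjusted p = 9.40e-04). The ligand gene TGFB1 was at 56.7 ± 4.67 FPKM, but shares 215 exonic bases with HNRNPUL1 on the other strand, which was at 212.

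Further factors able to drive EMT were largely low. Of 19 genes, 6 were called above, 7 below and 6 were listed at 0, and the median was 0.024 FPKM. Those called above are 31.6% of the list, or 46.2% of the 13 tested, beside 70.6% of protein-coding genes tested. SOX4, a factor of neural progenitors, stood apart at 90.95 ± 2.54 FPKM, and ETS1 (19.1 ± 1.57) and TEAD4 (13.7 ± 0.7) followed. Those at 0 include FOXD3, a regulator of early neural crest, and TBXT, the mesoderm factor brachyury.

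Factors that maintain epithelia and oppose EMT were the lowest list. Of 16 genes, 2 were called above, among them GRHL1 (1.55, 1.82 and 2.28 FPKM), 5 were called below and 9 were listed at 0. Those called above are 12.5% of the list, or 28.6% of the 7 tested, beside 70.6% of protein-coding genes tested. Without replicate 2, 1 gene was called above and 3 were called below. After rescaling to TPM, which lowers all values by 0.46 to 0.54 log2, none was called above. The third highest was KLF5 at 0.665 ± 0.094 FPKM. The 9 at 0 include ESRP1, an epithelial splicing factor, OVOL2 and GRHL2, which are repressors or antagonists of ZEB1, and the host genes of miR-200c and miR-205. The summed level of the 16 genes was 4.43, 4.65 and 5.97 FPKM, beside 295.6, 322.2 and 289.2 for the 10 EMT factors.

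Epithelial junction genes, several of them textbook targets of SNAIL and ZEB repression, were not uniformly low. Of 30 genes, 11 were called above, 14 below and 4 neither, and CLDN1 was listed at 0. The 11 are 36.7% of the list, or 37.9% of the 29 tested, beside 70.6% of protein-coding genes tested. The median was 0.496 FPKM, and without replicate 2 only 8 were called below. CDH1, the E-cadherin gene, was at 0.249, 0.666 and 0.321 FPKM and was called below (limma adjusted p = 0.0226). CDH2, the N-cadherin gene, was at 48.7, 47.3 and 49.1 FPKM and exceeded CDH1 in each library by 6.65 ± 0.62 log2 (exact p = 0.25). The highest of the list was the laminin gene LAMA5 (51.2 ± 5.78 FPKM), and JUP (23.6 ± 0.301), a gene of adherens junctions and desmosomes, was also among the 3 highest. LAMA5 shares 244 exonic bases with ADRM1, at 41.6 FPKM on the other strand. The lowest above 0 were the desmosome genes DSP (0, 0.009 and 0 FPKM) and DSC2 (0.008, 0.006 and 0.002). In bulk RNA a low level in all cells and a higher level in a few cells cannot be told apart.

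Genes of the mesenchymal state were called above 1 FPKM at about the rate of protein-coding genes tested. Of 30 genes, 21 were called above, 4 below and 4 neither, and POSTN was listed at 0. The 21 are 70% of the list, or 72.4% of the 29 tested, beside 70.6% of protein-coding genes tested. The median over all 30, POSTN included, was 4.91 FPKM. The 9.13 FPKM of protein-coding genes tested leaves out genes at 0 in every library, so these medians cover unlike sets. The highest were MMP2, a gelatinase (318 ± 7.42 FPKM), ITGB1, an integrin (192 ± 6.75), and TNC, the matrix protein tenascin (64.8 ± 1.27). CDH6 (0.006, 0 and 0.006 FPKM), a cadherin of early neural crest, and MMP9 (0.161 ± 0.0471) were the lowest above 0. MMP9 shares 430 exonic bases with SLC12A5-AS1, which was higher at 1.74 FPKM. Of the fibroblast markers, 5 of which (DCN, LUM, COL1A1, COL1A2 and THY1) the mesenchymal list also holds, THY1 was at 60.1 ± 1.97 FPKM and DCN at 14.7 ± 2.14, while FAP was at 0.084, 0 and 0 and PDPN was listed at 0. Their sum was 109 to 120 FPKM per library, and their part in the mesenchymal levels was not tested.

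Genes reported as TWIST1 targets in other cells were also set beside TWIST1. Of 18, 12 were called above, 3 below and 1 neither, CCND2 was listed at 0, and CDKN1A had a value in 1 library only and was not tested. Without replicate 3 only 1 was called below. The 12 called above are 66.7% of the list, or 75% of the 16 tested, near the 70.6% of protein-coding genes tested. The median was 35.01 FPKM. YBX1 led, followed by BMI1 (115 ± 7.07 FPKM), a Polycomb protein, and MDM2 (87.5 ± 16.9), the ligase of p53. RUNX2 (0, 0 and 0.017 FPKM), the bone factor that TWIST1 restrains, and GLI1 (0.136 ± 0.0475), a Hedgehog effector, were called below. With 1 cell line and no change of TWIST1, no effect of TWIST1 on these genes can be read from their levels.

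**Figure D5:**
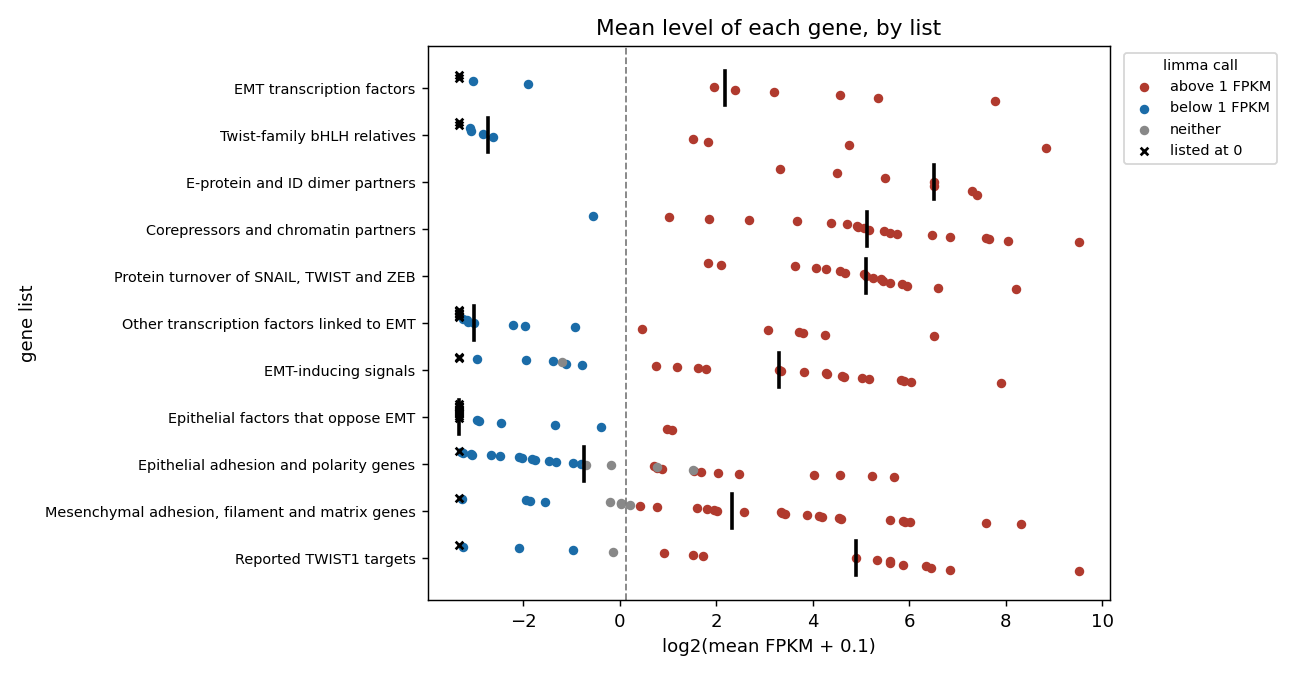
Mean level of each gene as log2(mean FPKM + 0.1) (horizontal axis), 1 row per gene list, coloured by its limma call against 1 FPKM (dashed line); crosses are genes listed at 0 and black bars are list medians. Dimer partners, corepressors and turnover genes sit mostly right of the line (medians 91.05, 34.7 and 34.3 FPKM), and most epithelial factors sit at 0.

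SNAIL and ZEB proteins bind the E-box CACCTG, which reads as CAGGTG on the other strand. It was searched on both strands in the 250 bases before each RefSeq start on GRCh38.p14. A gene may have several starts, and 20.6% of 27305 genes held it before at least 1. Of the EMT factors, 6 matched the promoter table, and ZEB1 alone held the motif. TWIST1, SNAI1, SNAI2 and SNAI3 did not match. Of 30 listed epithelial junction genes 19 matched, and 13 of these (68.4%) held it before at least 1 start. CDH1 and EPCAM were among those that did not match. The list of 30 includes textbook targets of SNAIL and ZEB repression, so its share beside that of all genes may partly follow from that choice, which was not tested. CRB3, a polarity gene, held 5 copies. CLDN7, a claudin gene, held 4 before 1 of its starts and none before the other. Of 10 matched epithelial factors 4 held it (40%), and of 16 matched mesenchymal genes 2 (12.5%). ZEB1 has a window with 1 copy, another with 2 and others with none. The ZEB1 window with 1 copy is printed. So is a window of MUC1, an epithelial mucin gene with a pair of copies separated by 1 base. The motif is in capitals:
ZEB1, chr10:31318167-31318416, plus strand: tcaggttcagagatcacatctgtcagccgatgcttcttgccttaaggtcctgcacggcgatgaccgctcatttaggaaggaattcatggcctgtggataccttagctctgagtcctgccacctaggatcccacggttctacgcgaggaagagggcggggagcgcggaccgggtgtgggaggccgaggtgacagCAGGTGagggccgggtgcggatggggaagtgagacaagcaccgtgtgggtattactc
MUC1, chr1:155192916-155193165, minus strand: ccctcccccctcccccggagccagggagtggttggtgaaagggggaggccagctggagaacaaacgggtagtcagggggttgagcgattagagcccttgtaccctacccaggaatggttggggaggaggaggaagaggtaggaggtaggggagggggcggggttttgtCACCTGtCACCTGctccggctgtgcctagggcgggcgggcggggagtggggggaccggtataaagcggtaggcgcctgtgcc

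Junction genes with and without the motif overlapped in level. Of the 13 with it, 5 were called above, 7 below and 1 neither, with a median of 0.304 FPKM and a range from 0.003 to 51.2. Of the 6 without it, 2 were called above, 2 below and 1 neither, and 1 was listed at 0, with a median of 0.487 FPKM. CRB3 was at 0.053, 0.082 and 0.107 FPKM and CLDN7 at 0.329, 0 and 0.081, both called below. MUC1 was at 5.283, 1.011 and 1.959 FPKM, with replicate 1 the highest, and was called neither (limma adjusted p = 0.135). CRB3, CLDN7 and MUC1 were chosen for their motifs, outside the naming rule. With 13 and 6 genes of 1 line, these are descriptions of the promoters' letters beside the levels, and binding was not measured.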

How the data were processed

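RNA was sequenced as single reads of 50 bases from 3 SH-SY5Y flasks, 500 ng per stranded mRNA library, per the labels' protocols. TopHat2 2.1.1, Cufflinks 2.2.1, FastQC 0.10.1, bcl2fastq and the build hg38 come from the submitters' processing notes. Their roles, the gene annotation and the strand setting are not known here. The authors deposited 1 table of FPKM for 60660 Ensembl identifiers, of which 57046 matched GENCODE 29 and 3614 did not. For 154 shared names the identifier with the highest mean was kept, and 28 genes lack a value in 1 or 2 libraries.

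A gene was tested if any library had it above 0 and at least 2 libraries had a value. The fit was limma's moderated two-sided test of the intercept (limma 3.58.1, R 4.3.3). The test used log2(FPKM + 0.1), which understates the distance of low genes from 1 FPKM. Tested on simulated data over 31719 genes, it called 7% of 200 genes lying at the level. It placed 68% of 100 genes 0.5 log2 away, and 75% of 100 genes 1 log2 away, on the right side. Pairs were compared by their log2 differences per library, for 10 of 11 pairs, by exact sign-flip (two-sided). Every pair gave an exact p = 0.25, also after Benjamini-Hochberg adjustment.

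Depth was estimated from low values in genes with 1 transcript of at least 600 exonic bases, less an assumed 200 bases. Of 2876, 2704 and 2468 such values, 97.2%, 97.2% and 96.9% lay within 0.1 of a whole read, where chance gives 20%. Mitochondrially encoded genes held 41.7% to 45.3% of summed FPKM. Lists are described by counts and medians, with no test of a list. All members, pairs, neighbours, lists of up to 10 genes, and the 3 highest and 3 lowest genes of longer lists were to be named. Ties at 0 are counts, and others were chosen after their values were seen. A few genes covered by this rule are not reported here. The members and lists were chosen with earlier results of these data known. The alternatives were other pseudocounts, scalings, levels, filters and a variance trend, summed identifiers, and each library left out. Python 3.11.15 with pandas 2.3.3, scipy 1.17.1 and matplotlib 3.10.9 was used.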

Additional observations from a re-analysis of the deposited data

How the results depend on the processing

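Of 274 counts recomputed under the alternatives, 257 stayed within 1.5 times the reported count and 17 did not. Of 171 values of single genes and pairs, 169 stayed the same. For single genes this means the same direction and the same side of the threshold, and for pairs the same direction only. The exceptions are SNAI1 (0.03, call lost) and SNAI2 (-0.39, reversed) against a level of 5 FPKM. With a mean of at least 0.1 FPKM required, the number called below 1 FPKM became 1 EMT factor, 0 TWIST relatives, 3 other EMT-linked factors, 2 epithelial factors and 8 epithelial junction genes, since this filter removes low genes from the test. With genes at 0 in every library tested too, the number below became 4 EMT factors, 13 other EMT-linked factors, 14 epithelial factors and 0 corepressors. Rescaling without mitochondrially encoded genes raised all values by 0.32 to 0.33 log2 and left 0 corepressors below, and rescaling to TPM left 0 epithelial factors above. Leaving out each library in turn gave 6 EMT factors above and 2 below each time. The number called below ranged from 2 to 4 for TWIST relatives, 0 to 1 for corepressors, 3 to 5 for epithelial factors, 8 to 12 for junction genes and 1 to 3 for TWIST1 targets, and that called above from 1 to 2 for epithelial factors. No paired analysis was possible because the series has a single group. Depth limits TWIST2, SNAI3, PRRX1 and MEOX2, which had at most 11 estimated reads in a library.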

Other observations

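Genes on the other strand of the factors' loci were measured too, apart from the comparisons. At ZEB1, the antisense gene ZEB1-AS1 was at 12.3, 13.0 and 10.1 FPKM, and at ZEB2, ZEB2-AS1 was at 1.63, 1.15 and 1.97. SNAI3 was the only EMT factor whose overlapping antisense gene was higher than the factor itself. The long noncoding RNA gene TRERNA1, the nearest annotated gene downstream of SNAI1, was listed at 0 in every library, as was PPDPFL beside SNAI2. Genes beside ZEB2 and PRRX2 were at moderate levels, with GTDC1 at 17.6 ± 1.02 FPKM, ASB6 at 18.1 ± 0.576 and PTGES, a prostaglandin synthase gene, at 4.13 ± 0.793. Of the Schwann cell markers, ERBB3 was at 2.44, 1.39 and 1.28 FPKM and called neither above nor below, while SOX10, the defining factor of that lineage, was at 0, 0 and 0.034.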
